A study of Homo sapiens with 6 samples.

Results

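SLK, STK10, MAP3K7, TAB1, TAB2, MAP4K4, MINK1 and TNIK were examined in 6 RNA sequencing libraries of pancreatic cancer cell lines. They were found by gene symbol in the deposited table, after repeated lines were dropped, and are 8 of the 27408 genes in it. The table holds TPM (an abundance corrected for transcript length and sequencing yield) for single RefSeq transcripts, 32 of them from these 8 genes, and the TPM of a gene is the sum of its transcripts. The established human pancreatic cancer lines MIA-PaCa2 and PANC-1 each carried the LPCX control construct, ESRP1 or ESRP2. The epithelial splicing regulatory proteins ESRP1 and ESRP2 bind RNA and steer the choice of alternative exons in epithelial cells. All cells were kept in DMEM with 10% serum, and no further treatment is given. Each combination of line and construct is represented by 1 library without replicates, and whether a culture was a clone or a pool is not given in the sources used here.

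SLK and STK10 (also called LOK) are closely related kinases of the STE20 family that phosphorylate ezrin, radixin and moesin, the proteins that tie the cortical actin network to the plasma membrane. MAP3K7, better known as TAK1, relays signals from TGF-beta, interleukin and TNF receptors to the IKK complex and to the MAP kinases JNK and p38. TAB1 binds and activates TAK1, and TAB2 links it to ubiquitin chains at activated receptors. MAP4K4, MINK1 and TNIK form a subfamily of STE20 kinases with a C-terminal citron homology domain, and act upstream of JNK, in the Hippo pathway and on the cytoskeleton, with TNIK also a partner of the Wnt effector TCF4. Several of these genes have alternative exons, so a constant total can hide an exchange of transcripts.

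The exons by which the main transcripts of SLK and MAP3K7 differ were read from GENCODE release 29 transcripts on GRCh38 that pair with the RefSeq transcripts, and are shown because the largest exchanges of transcripts in these genes run through them. The SLK exon has 93 bases at chr10:104010816-104010908 on the plus strand. It is exon 13 of 19 of NM_014720, is coding, and adds 31 codons with 0 stop codons in frame. The other SLK transcript, NM_001304743, joins the neighbouring exons directly, and its coding sequence is 3612 bases against 3705 bases. The first MAP3K7 exon has 81 bases at chr6:90544552-90544632 on the minus strand. It is exon 12 of 17 of NM_145331 and adds 27 codons, again with 0 stops in frame. Capitals mark the alternative exon and lower case the adjoining ends of the neighbouring exons. Each skipping junction shows those ends joined.
SLK exon of 93 bases: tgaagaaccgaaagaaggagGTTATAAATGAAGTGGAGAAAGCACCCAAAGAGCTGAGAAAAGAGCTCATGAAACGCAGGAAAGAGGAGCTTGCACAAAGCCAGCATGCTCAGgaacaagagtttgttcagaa
SLK skipping junction: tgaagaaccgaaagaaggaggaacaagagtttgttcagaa
MAP3K7 exon of 81 bases: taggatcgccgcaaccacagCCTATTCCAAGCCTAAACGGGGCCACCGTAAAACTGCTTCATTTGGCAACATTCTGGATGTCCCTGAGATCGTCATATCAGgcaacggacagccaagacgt
MAP3K7 junction without the 81 bases: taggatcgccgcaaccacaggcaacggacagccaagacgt

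A second MAP3K7 exon, of 116 bases at chr6:90518447-90518562, is not a multiple of 3, so leaving it out changes the reading frame. It is exon 15 of 16 of NM_003188. The 4 MAP3K7 transcripts combine the 2 exons. NM_145331 holds both and has a coding sequence of 1818 bases, NM_003188 holds only the second (1737 bases), NM_145332 holds only the first (1554 bases), and NM_145333 holds neither (1473 bases).
MAP3K7 exon of 116 bases: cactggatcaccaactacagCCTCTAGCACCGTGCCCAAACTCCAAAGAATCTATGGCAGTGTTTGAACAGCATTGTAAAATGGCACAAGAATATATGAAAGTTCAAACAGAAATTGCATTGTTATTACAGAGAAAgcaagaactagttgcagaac
MAP3K7 junction without the 116 bases: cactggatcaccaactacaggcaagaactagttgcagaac

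TNIK and MINK1 each have an exon of 24 bases (8 codons), the TNIK exon at chr3:171107183-171107206 on the minus strand and the MINK1 exon at chr17:4893286-4893309 on the plus strand. They are shown because they are the shortest alternative exons of these kinases, and because they match at 17 of 24 positions.
TNIK exon of 24 bases: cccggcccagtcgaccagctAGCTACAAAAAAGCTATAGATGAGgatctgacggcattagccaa
MINK1 exon of 24 bases: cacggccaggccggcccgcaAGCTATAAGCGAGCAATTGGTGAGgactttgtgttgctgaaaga

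ESRP proteins are known to bind GU-rich RNA, so GGTGG and TGGTG, which can overlap each other, were searched in these exons on both strands. Neither string is on the sense strand (the one that reads as the RNA) of the SLK exon, of either MAP3K7 exon or of the TNIK exon. The MINK1 exon holds 1 TGGTG on that strand. The opposite strand of the 81-base MAP3K7 exon holds 1 GGTGG. For comparison, on the sense strand GGTGG is in 12.1% and TGGTG in 14.7% of the 1351 coding exons of 93 bases, and in 9.63% and 13.8% of the 1360 coding exons of 81 bases. Of the 186 coding exons of 24 bases, 2.69% hold TGGTG. The search says only which letters are in the exons, and the flanking introns were not searched here.

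ESRP1 was 367 TPM in MIA-PaCa2 ESRP1 and 491 TPM in PANC-1 ESRP1, and at most 0.261 TPM in the other 4 libraries. ESRP2 was 197 TPM in MIA-PaCa2 ESRP2 and 308 TPM in PANC-1 ESRP2. PANC-1 also carried ESRP2 without the construct, at 34.8 TPM with LPCX and 37.7 TPM with ESRP1, while MIA-PaCa2 had at most 0.106 TPM in those libraries. The depth is unknown, and between 10578 and 10932 genes reached 5 TPM per library. The 6 epithelial and carcinoma markers summed to between 6051 and 9888 TPM. Most of this sum was VIM, which is not an epithelial marker, from 4142.5 TPM in PANC-1 LPCX to 5620.3 TPM in MIA-PaCa2 ESRP2. EPCAM was listed at 0 in all 3 MIA-PaCa2 libraries, and CDH1 there was at most 0.173 TPM. The 5 leukocyte markers summed to between 0.575 and 11.4 TPM, with LYZ up to 9.84 TPM in MIA-PaCa2. The 6 fibroblast and endothelial markers summed to between 66.6 and 134 TPM, mostly COL1A2 in MIA-PaCa2 and COL1A1 in PANC-1, and the 5 acinar and islet markers to at most 0.729 TPM.

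Ordered by median TPM over the 6 libraries, MINK1 (72.3) stood highest, before SLK (60.6), MAP4K4 (56.9), TAB2 (40.8), MAP3K7 (37.3), STK10 (28.98), TAB1 (20.3) and TNIK (3.34). The ranges of neighbours in this order overlap, except those of MAP4K4 and TAB2 and those of TAB1 and TNIK. The gene levels moved little with either construct and differed more between the lines. By limma over all 6 libraries, with construct and line as terms, 0 of the 8 genes were called for ESRP1 against LPCX at an adjusted p under 0.05, against 0.00845% of the 11829 genes tested. For ESRP2 against LPCX 0 of 8 were called, against 0.0169% of all genes, and for ESRP1 against ESRP2 also 0 of 8, against 0.00845%. The ESRP2 gene itself was not called for ESRP2 against LPCX (5.32 on the log2 scale, SE 1.11, limma adjusted p = 0.329). Its log2 ratio to LPCX was 7.53 for MIA-PaCa2 but 3.11 for PANC-1. The ESRP1 gene was called for ESRP1 against LPCX (8.51, SE 0.130, limma adjusted p = 5.36e-05). An effect that differs between the lines can thus be missed, so 0 called is not evidence of no effect. At an unadjusted p under 0.05 the counts were 0 of 8 for ESRP1 (6.93% of all genes), 1 of 8 for ESRP2 (13.8%) and 0 of 8 for ESRP1 against ESRP2 (4.2%). The 1 gene was TAB2. None of the 8 genes differed by 2-fold from LPCX in any line. Of all genes, in MIA-PaCa2 1.28% did so for ESRP1 and 1.62% for ESRP2, and 1.51% and 1.96% in PANC-1. 

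**Figure D1:**
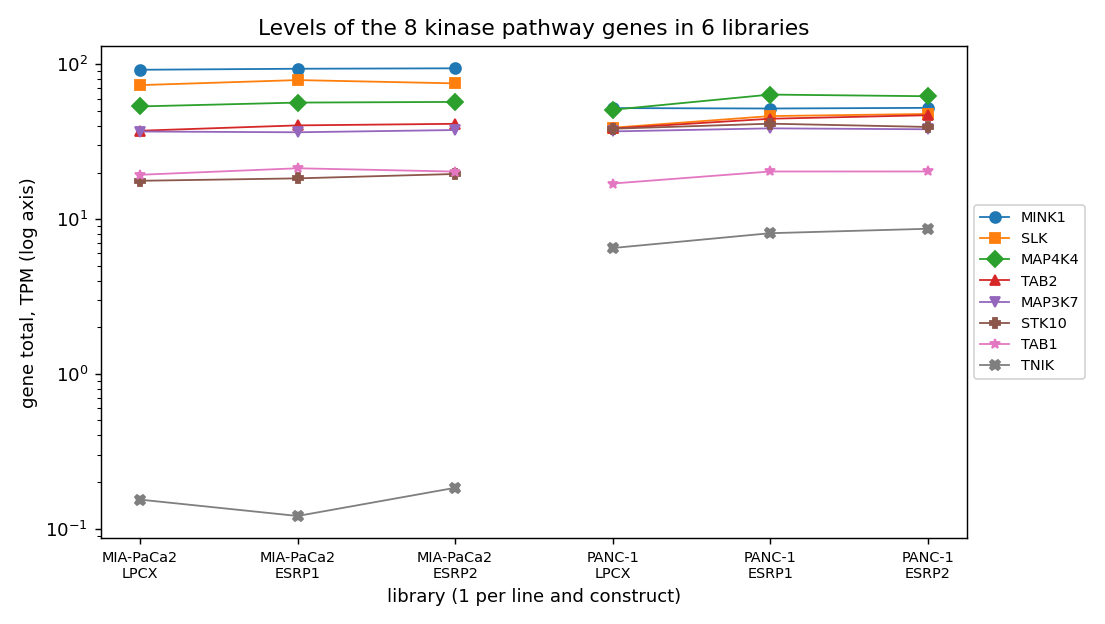
Gene totals in TPM (vertical axis, log scale) of the 8 kinases and TAK1 partners in each of the 6 libraries (points), with no error bars since each is 1 library. SLK and MINK1 are higher in MIA-PaCa2, STK10 is higher in PANC-1, and TNIK is below 0.2 TPM in MIA-PaCa2 and above 6 TPM in PANC-1.

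All 8 fitted values were above 0 for ESRP1 and for ESRP2, with medians of 0.14 (ESRP1) and 0.16 (ESRP2) on the log2(TPM + 1) scale. All genes tested had a median of 0.06 in either comparison, with 68.3% above 0 for ESRP1 and 65.1% for ESRP2. After median ratio scaling 7 of 8 were above 0 for ESRP1, where MINK1 was below, and 6 of 8 for ESRP2, where MAP3K7 and MINK1 were. The comparisons with ESRP1 and with ESRP2 share the LPCX library of each line.

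Between the lines 4 of the 8 genes were called by limma, against 78.8% of all genes tested, so a call between these lines was common. One of them, TNIK, passed the filter of 5 TPM through PANC-1 only, so the filter fixed its direction between the lines. Of the other 7, which reached 5 TPM in both lines, 3 were called, against 75.3% of all such genes. SLK and MINK1 were lower in PANC-1 than in MIA-PaCa2, and STK10 was higher. The other 4 genes (MAP3K7, TAB1, TAB2 and MAP4K4) were not called.

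SLK was 73.5 TPM in MIA-PaCa2 LPCX, 79.2 TPM under ESRP1 and 75.4 TPM under ESRP2. In PANC-1 it was 39.0 TPM with LPCX, 46.3 TPM with ESRP1 and 47.8 TPM with ESRP2. All 3 MIA-PaCa2 libraries were thus above all 3 PANC-1 libraries. The line difference was -0.77 on the log2 scale (SE 0.0703, limma adjusted p = 0.000206). ESRP1 against LPCX gave 0.18 (SE 0.0862, limma adjusted p = 0.658), and between 0.08 (without PANC-1 LPCX) and 0.27 (without MIA-PaCa2 LPCX) with 1 library left out.

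STK10, the closest relative of SLK in the set, ran the other way between the lines. It was 17.7, 18.3 and 19.6 TPM in MIA-PaCa2 (LPCX, ESRP1, then ESRP2), and 38.4, 41.4 and 39.4 TPM in PANC-1. The lines did not overlap, with a difference of 1.06 on the log2 scale (SE 0.0666, limma adjusted p = 4.93e-05). In MIA-PaCa2 the SLK total was thus well above the STK10 total in all 3 libraries. In PANC-1 the totals of these paralogs lay close together, with SLK at 39.0 and STK10 at 38.4 TPM under LPCX. STK10 is listed with 1 transcript, so it has no shares to compare.

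The exon of 93 bases divided the SLK libraries by construct. NM_014720, which holds it, was 0.607 TPM in MIA-PaCa2 LPCX, 36.1 TPM under ESRP1 and 33.0 TPM under ESRP2. In PANC-1 it was 0.389, 8.23 and 7.50 TPM in the same order. NM_014720 was thus above LPCX in all 4 ESRP libraries, with MIA-PaCa2 above PANC-1 under both constructs. As a share of the gene it was below 1% in both LPCX libraries (0.827% and 0.999%). The increases were 44.8 and 42.9 percentage points in MIA-PaCa2 for ESRP1 and ESRP2, and 16.8 and 14.7 points in PANC-1. In a bulk library, a change in every cell and a larger change in some of the cells cannot be told apart.

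The skipping transcript had different values against LPCX in the 2 lines. NM_001304743 was 72.8 TPM in MIA-PaCa2 LPCX, and 43.1 and 42.4 TPM with ESRP1 and ESRP2. In PANC-1 it was 38.6 TPM with LPCX, and 38.1 and 40.3 TPM with ESRP1 and ESRP2. So in MIA-PaCa2 the skipping form was lower where the exon-holding form was higher, and the total changed little. In PANC-1 the skipping form stayed within 2 TPM of LPCX and the exon-holding form came on top of it, with a higher SLK total. Whether this differs between the lines beyond the error was not tested, since each line has 1 library per construct.

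**Figure D2:**
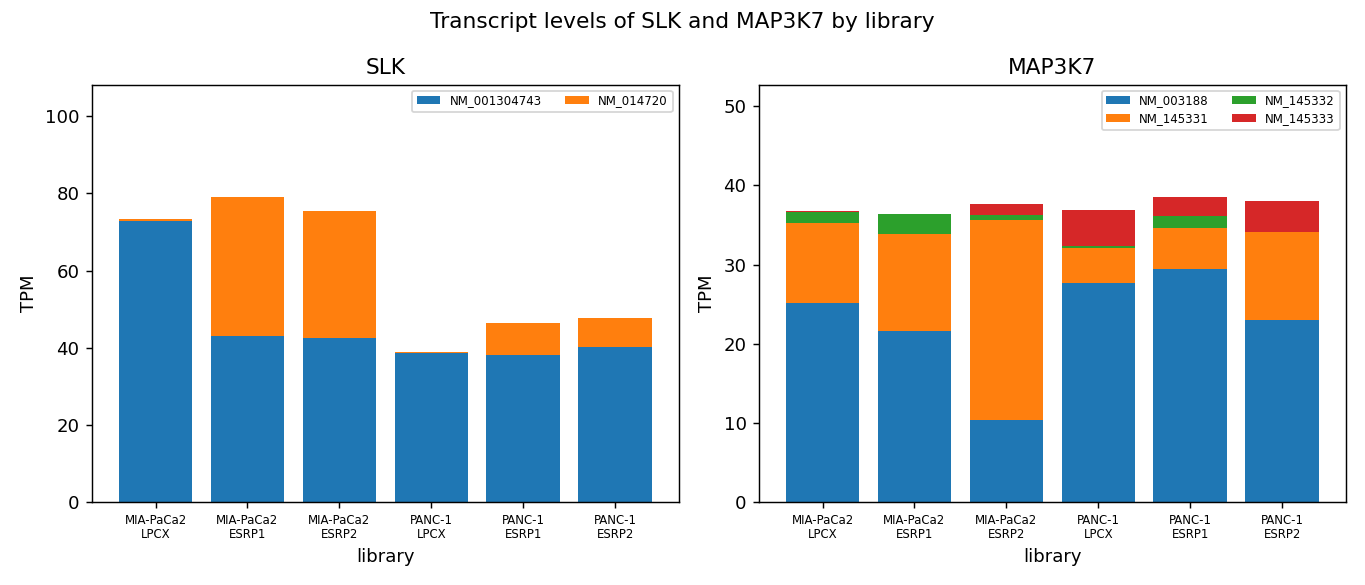
TPM (vertical axis, stacked bars from 0) of the transcripts of SLK and of MAP3K7 in the 6 libraries, 1 library a bar. The SLK transcript with the 93-base exon is below 1 TPM in both LPCX libraries and at least 7.50 TPM in the 4 ESRP libraries. The MAP3K7 transcript with both alternative exons, NM_145331, is largest in MIA-PaCa2 ESRP2, at 25.3 TPM.

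Transcript shares were compared over both lines as log2 odds (a transcript against the rest of its gene) for 13 of the 32 transcripts of these genes and 12965 transcripts in all. By limma, 0 of 13 were called for ESRP1 against LPCX (0.00771% of all transcripts), 0 of 13 for ESRP2 (0%) and 0 of 13 for ESRP1 against ESRP2 (0%). At an unadjusted p under 0.05 the counts were 3 of 13 (5.71% of all transcripts), 4 of 13 (6.36%) and 2 of 13 (4.49%). The 3 were both SLK transcripts and MINK1 NM_153827. The 4 were both SLK transcripts with MAP3K7 NM_145331 and NM_003188, and the 2 were these MAP3K7 transcripts. The SLK transcripts mirror each other and the MAP3K7 transcripts ran in opposite directions, so the counts are not of independent transcripts. For SLK NM_014720 the log2 odds were higher by 4.55 with ESRP1 (SE 0.713, limma adjusted p = 0.541) and by 4.40 with ESRP2 (SE 0.713, limma adjusted p = 0.417). ESRP1 and ESRP2 differed by 0.16 (limma adjusted p = 0.992), and this difference turned negative when MIA-PaCa2 ESRP1 (-0.44) or PANC-1 ESRP2 (-0.51) was left out. So SLK did not pass the adjusted threshold in this design, although the share was above LPCX in both lines under both constructs.

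Set beside other alternative exons, 28 of 2175 cassette exons with enough expression (1.29%) moved by 10 or more percentage points, always up or always down, in all 4 comparisons with LPCX. A cassette exon is one that some transcripts hold and others skip. SLK and MAP3K7 have 3 of these exons, and 1 of the 3, the SLK exon, did so. By whole transcripts, SLK was the only 1 of 6 measured genes here with a share moved in all 4 comparisons, against 55 of 6003 genes (0.916%). The genes were chosen with earlier results of these data known, so these counts describe them and do not test them. Taken singly, 1 of the 3 exons moved with ESRP1 in MIA-PaCa2 (10.9% of all), 2 of 3 with ESRP2 in MIA-PaCa2 (12%), 1 of 3 with ESRP1 in PANC-1 (8.55%) and 2 of 3 with ESRP2 in PANC-1 (9.79%). The exon that joined the SLK exon in these counts, with ESRP2 in both lines, was the 81-base exon of MAP3K7.

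MAP3K7, the TAK1 gene, had nearly the same total in all libraries while the makeup of its transcripts differed. The gene was 36.8, 36.4 and 37.65 TPM in MIA-PaCa2 (LPCX, ESRP1, then ESRP2), and 36.9, 38.6 and 38.1 TPM in PANC-1. All 6 libraries lay between 36.4 and 38.6 TPM, the narrowest relative range of the 8 genes. NM_145331, with both alternative exons, was 10.2, 12.3 and 25.3 TPM in MIA-PaCa2, against 4.35, 5.28 and 11.1 TPM in PANC-1. It was highest with ESRP2 in each line, and close to LPCX with ESRP1. NM_003188, which lacks the 81-base exon, was 25.1, 21.6 and 10.3 TPM in MIA-PaCa2, against 27.7, 29.4 and 23.0 TPM in PANC-1, lowest with ESRP2 in each line.

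Inclusion of the 81-base exon, the TPM of transcripts that hold it as a percentage of those that hold or skip it, was 31.2% in MIA-PaCa2 LPCX, 40.7% under ESRP1 and 68.9% under ESRP2. In PANC-1 it was 12.5%, 17.5% and 29.2% in the same order. ESRP2 was thus 37.7 percentage points above LPCX in MIA-PaCa2 and 16.7 points in PANC-1, where ESRP1 was 9.42 and 4.94 points above. For NM_145331 the log2 odds were higher by 1.94 with ESRP2 (SE 0.283, limma adjusted p = 0.376) and by 0.31 with ESRP1 (SE 0.283, limma adjusted p = 0.960). With 1 library left out the value for ESRP1 ran from 0.06 (without MIA-PaCa2 LPCX) to 0.57 (without PANC-1 LPCX). ESRP1 minus ESRP2 was -1.63 (SE 0.283, limma adjusted p = 0.939), so that difference did not pass either. NM_003188 was lower by 1.69 with ESRP2 in the log2 odds (-1.69, SE 0.391, limma adjusted p = 0.613), and -1.10 without MIA-PaCa2 ESRP2.

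The listed inclusion values of SLK and MAP3K7 ordered the constructs differently, but in neither gene did ESRP1 against ESRP2 pass the adjusted threshold. For SLK the difference was small and changed sign when single libraries were left out. In MIA-PaCa2 the SLK exon was at 45.6% with ESRP1 and 43.7% with ESRP2, whereas the MAP3K7 exon was at 40.7% and 68.9%. In PANC-1 the SLK exon was at 17.8% and 15.7%, and the MAP3K7 exon at 17.5% and 29.2%. For either exon the inclusion with either ESRP was higher in MIA-PaCa2 than in PANC-1. The ESRP1 and ESRP2 gene totals under their constructs were higher in PANC-1, which also had ESRP2 at 34.8 TPM with LPCX. Whether the totals and the inclusion are related was not tested. With LPCX the 81-base MAP3K7 exon was already higher in MIA-PaCa2 (31.2% against 12.5%), while the SLK exon was at 0.827% against 0.999%. The 116-base MAP3K7 exon varied less over the 6 libraries. Its inclusion was 95.9%, 93.2% and 94.6% in MIA-PaCa2, against 86.9%, 89.9% and 89.8% in PANC-1.

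**Figure D3:**
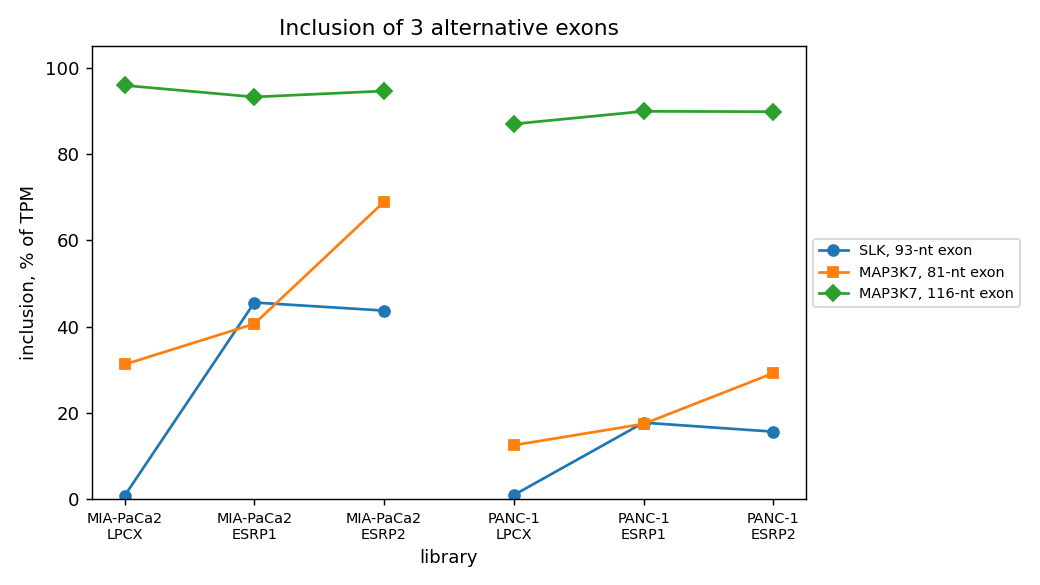
Inclusion in percent (vertical axis) of the 93-base SLK exon and the 81-base and 116-base MAP3K7 exons in the 6 libraries, 1 library a point, with lines joining the libraries of 1 cell line. The SLK exon is near 0 with LPCX and higher with either ESRP, the 81-base MAP3K7 exon is highest with ESRP2 in each line, and the 116-base exon stays between 86.9% and 95.9%.

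Between the lines 2 of the 13 transcripts were called by limma, against 17.3% of all transcripts, and both belong to MAP3K7. NM_145331 was lower in PANC-1 (-1.76 in log2 odds, SE 0.231, limma adjusted p = 0.0158). NM_145333, which holds neither exon, was higher in PANC-1 (2.31, SE 0.511, limma adjusted p = 0.0430), at 12.3%, 6.34% and 10.2% of the gene with LPCX, ESRP1 and ESRP2, against at most 3.67% in MIA-PaCa2. Leaving out 1 library ended the NM_145331 call in 5 of 6 cases (adjusted p between 0.0532 and 0.0716, and 0.0496 without PANC-1 LPCX) and the NM_145333 call in 6 of 6 (adjusted p between 0.0757 and 0.183). For SLK NM_014720 the line difference was -1.10 (SE 0.582, limma adjusted p = 0.244), and ran from -1.94 to -0.65 with 1 library left out. It was -1.94 without either LPCX library (limma adjusted p = 0.0498 without that of PANC-1 and 0.0521 without that of MIA-PaCa2), -0.70 without either ESRP1 library and -0.65 without either ESRP2 library.

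TAB1 was 19.3, 21.3 and 20.3 TPM in MIA-PaCa2 (LPCX, ESRP1, then ESRP2), and 17.0, 20.3 and 20.3 TPM in PANC-1. The LPCX library was the lowest in each line, but the difference for ESRP1 was 0.19 on the log2 scale (SE 0.0880, limma adjusted p = 0.658), and 0.12 without PANC-1 LPCX. The transcript NM_006116 made up at least 95.8% of TAB1 in every library.

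TAB2 was 37.3, 40.3 and 41.3 TPM in MIA-PaCa2, against 38.5, 44.5 and 46.9 TPM in PANC-1, again lowest with LPCX in each line. For ESRP2 the difference was 0.21 (SE 0.0755, limma adjusted p = 0.345). Its main transcripts, NM_001292034 and NM_015093, have coding sequences of the same length (2079 bases) and different first exons, at chr6:149317620-149318015 and chr6:149342657-149342833. NM_001292034 made up 90.9%, 87.6% and 87.3% of TAB2 in MIA-PaCa2, against 86.2%, 92.9% and 90.8% in PANC-1. The ESRP libraries were thus below LPCX in MIA-PaCa2 and above it in PANC-1, and no share moved by 10 points.

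MAP4K4 was 53.5, 56.6 and 57.2 TPM in MIA-PaCa2, against 50.9, 63.8 and 62.2 TPM in PANC-1. Within each line LPCX was the lowest, with the wider gap in PANC-1. ESRP1 gave 0.20 on the log2 scale (SE 0.0863, limma adjusted p = 0.658). This was 0.09 without PANC-1 LPCX, 0.13 without PANC-1 ESRP1 and 0.31 without MIA-PaCa2 LPCX. NM_145686, which led in every library, was 40.9%, 39.4% and 39.7% of the gene in MIA-PaCa2, against 45.4%, 47.8% and 47.8% in PANC-1. NM_001242559 was 27.5%, 31.4% and 35.2% in MIA-PaCa2, against 32.05%, 31.1% and 28.95% in PANC-1. NM_004834 took between 15.3% and 21.7%. No MAP4K4 transcript moved by 10 percentage points.

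MINK1 stayed flat in its total under both constructs, at 92.3, 93.7 and 94.3 TPM in MIA-PaCa2, against 52.2, 51.9 and 52.4 TPM in PANC-1. The lines stood apart, by -0.83 on the log2 scale (SE 0.0542, limma adjusted p = 5.69e-05). Within the gene, NM_153827 was 71.8%, 83.2% and 80.3% in MIA-PaCa2, against 75.0%, 81.5% and 79.2% in PANC-1. It was above LPCX in all 4 ESRP libraries, by 11.4, 8.52, 6.59 and 4.25 percentage points, and reached 10 points only for ESRP1 in MIA-PaCa2. The log2 odds were higher by 0.74 with ESRP1 (SE 0.230, limma adjusted p = 0.826) and by 0.50 with ESRP2 (SE 0.230, limma adjusted p = 0.799), the latter 0.32 without MIA-PaCa2 LPCX. NM_170663, a transcript that holds the 24-base exon shown above, was 7.60%, 5.57% and 5.11% in MIA-PaCa2, against 6.96%, 4.76% and 2.21% in PANC-1, lowest with ESRP2 in each line. NM_153827 was not paired 1 to 1 with a GENCODE model, so no exon inclusion is given for this gene.

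TNIK, the Wnt-linked member, was found mostly in PANC-1. It was 0.154, 0.121 and 0.184 TPM in MIA-PaCa2, against 6.51, 8.11 and 8.66 TPM in PANC-1. All 3 PANC-1 libraries were thus above all 3 MIA-PaCa2 libraries, and no test is given for this difference, whose direction the filter fixed. In PANC-1 NM_001161562 made up 61.3%, 71.7% and 62.8% of TNIK. NM_001161561, which adds the 24-base exon, made up 24.5%, 18.4% and 25.9%. Inclusion of that exon over all paired TNIK transcripts was 29.4%, 21.5% and 29.9%, lower with ESRP1 than in the other 2 libraries, by less than 10 percentage points. An exon of 165 bases at chr3:171128714-171128878 was at 93.04%, 94.2% and 91.5%, and one of 87 bases at chr3:171139470-171139556 was at 7.88% and 4.34% with LPCX and ESRP1 and listed at 0 with ESRP2. Shares in MIA-PaCa2 are not given at such levels.

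**Figure D4:**
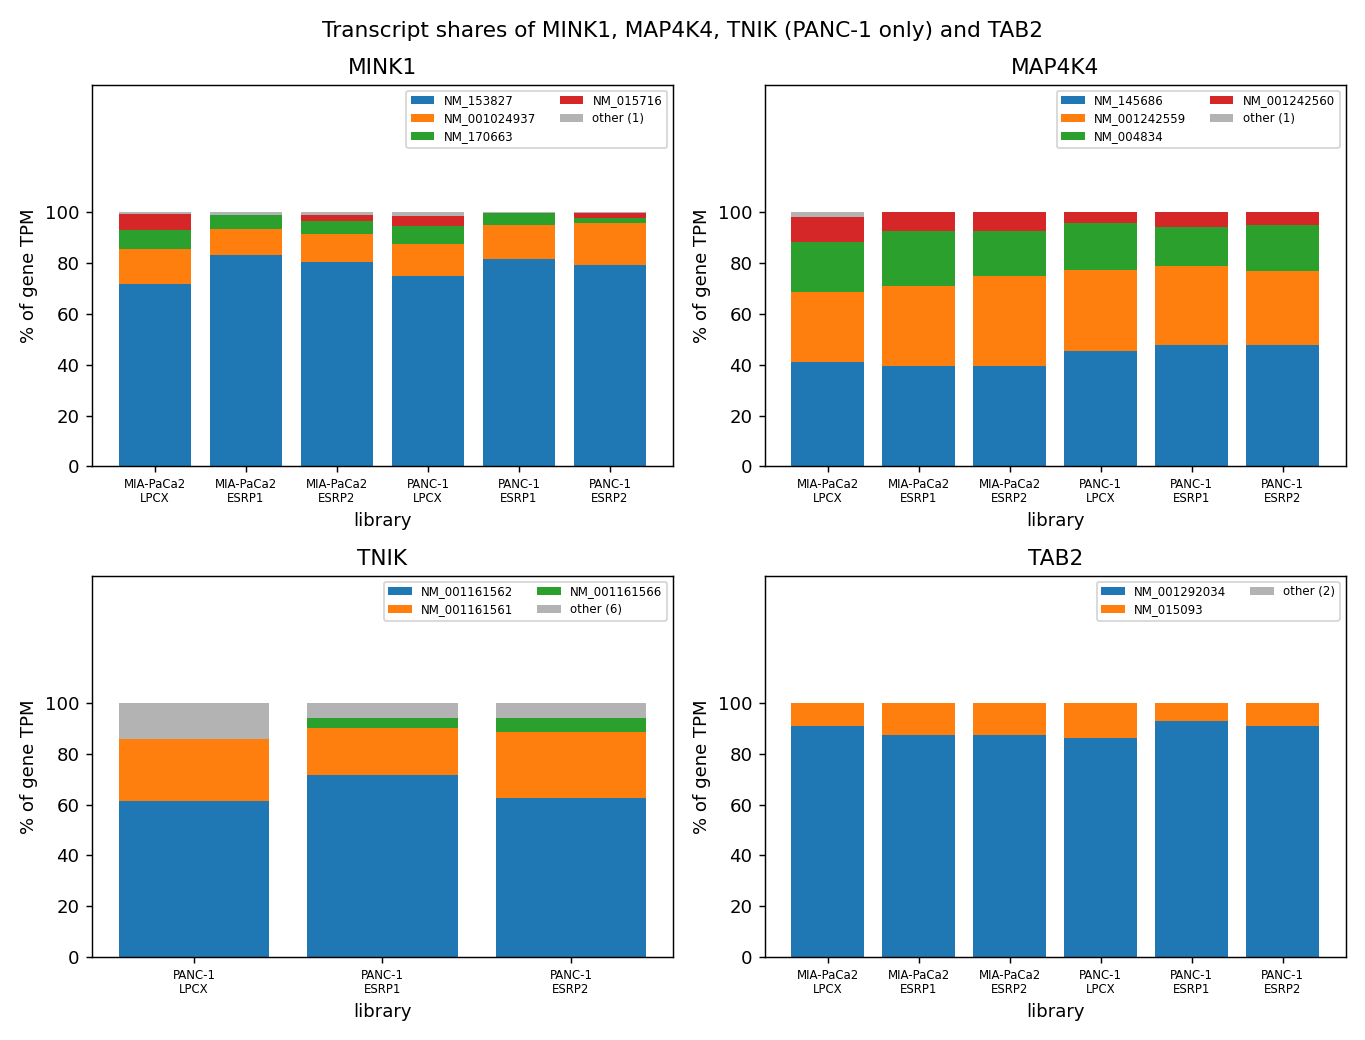
Shares of the gene's TPM in percent (vertical axis, stacked bars from 0 to 100) taken by the transcripts of MINK1, MAP4K4, TNIK and TAB2, 1 library a bar and PANC-1 only for TNIK. NM_153827 of MINK1 is larger in the 4 ESRP libraries than in the LPCX library of the same line.

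The other STE20 kinases were read from a list of 25, of which 18 were tested. For ESRP1 and for ESRP2 against LPCX 0 of 18 were called by limma, against 0.00845% and 0.0169% of all genes tested. The medians were 0.13 and 0.11 on the log2 scale, against 0.06 for all genes tested in either comparison. Among the 18 tested, TAOK3, a kinase upstream of p38 and JNK, had the highest mean ratio over the 4 comparisons (0.35), at 7.19, 8.52 and 8.97 TPM in MIA-PaCa2, against 14.8, 20.6 and 20.3 TPM in PANC-1. MAP4K3 followed at 0.26. Among the same 18, STK25, a Golgi-linked kinase, was lowest at -0.01, and STRADA, the pseudokinase that activates LKB1, was next at 0.05. Between the lines 11 were higher and 5 lower in PANC-1. Called were thus 88.9% of the 18, against 75.3% of all genes that reached 5 TPM in both lines. PAK4 (2.34), PAK1 (1.75), STK26, TAOK3, STK39, MAP4K2, STK3, STK4, MAP4K3, TAOK1 and TAOK2 were higher, and MAP4K5 (-0.72), STRADB, STRADA, STK24 and STK25 lower. Of 14 with measurable shares, 0 had a share moved in all 4 comparisons, against 0.916% of all genes measured.

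The TAK1 pathway list had 27 genes, of which 25 were tested. Again 0 were called for either construct, against 0.00845% (ESRP1) and 0.0169% (ESRP2) of all genes tested. The medians were 0.13 and 0.09, against 0.06 for all genes tested in either comparison. Among the 25 tested, TGFBR1, a type I receptor of TGF-beta, had the highest mean ratio (0.30), at 13.9, 13.9 and 18.9 TPM in MIA-PaCa2, against 11.6, 15.03 and 16.1 TPM in PANC-1. TGFBR2 followed (0.29), and IRAK4 (-0.07) and IKBKB (-0.06) were lowest. Of the 25, 4 reached 5 TPM in 1 line only, so the filter fixed their direction between the lines. They were TGFBR2, IRAK4 and TNFAIP3 in PANC-1 and CYLD in MIA-PaCa2. TGFBR2, the type II receptor, was 0.273, 0.736 and 0.636 TPM in MIA-PaCa2, against 32.1, 36.8 and 36.2 TPM in PANC-1. Of the other 21, 11 were higher and 7 lower in PANC-1, or 85.7% called, against 75.3% of all such genes. BIRC2 (1.61), IKBKG, CHUK, IRAK1, PPM1B, XIAP, UBE2N, MAPK8, NLK, TRAF2 and RIPK1 were higher. IKBKB (-1.26), PPP6C, TAB3, MAP2K4, MAP2K7, MAP2K3 and MAPK14 were lower. TAB3, the paralog of TAB2, was thus called (-1.10, SE 0.0916, limma adjusted p = 0.000141) where TAB2 was not. Of the 3 IKK subunits, CHUK and IKBKG were higher in PANC-1 and IKBKB lower. Of 17 with measurable shares, 0 had a share moved in all 4 comparisons, against 0.916% of all genes measured.

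Partners and substrates of SLK and STK10 were 9, of which 8 were tested. For either construct 0 were called, against 0.00845% (ESRP1) and 0.0169% (ESRP2) of all genes tested. The medians were 0.08 and 0.04, against 0.06 for all genes tested in either comparison. Among the 8 tested, EZR, which encodes ezrin, had the highest mean ratio (0.17), at 543, 548 and 602 TPM in MIA-PaCa2, against 295, 353 and 351 TPM in PANC-1. DCTN1 followed (0.16), and LDB1 (-0.04) and RHOA (-0.02) were lowest. The ERM substrates split between the lines. EZR (-0.76) and MSN (-0.20), together with RHOA and PLK1, were lower in PANC-1, and RDX (1.26), PXN and LDB1 were higher, all at a limma adjusted p under 0.05. A call in either direction was common, with 87.5% of the 8 called against 75.3% of all genes that reached 5 TPM in both lines. None of 6 with measurable shares moved by 10 points in any comparison, against 33.8% of all genes measured that moved in at least 1.

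The STRIPAK complex, a phosphatase assembly that restrains STE20 kinases, and the LATS kinases and their partners made up a list of 18, all tested. For either construct 0 were called, against 0.00845% (ESRP1) and 0.0169% (ESRP2) of all genes tested. The medians were 0.07 and 0.11, against 0.06 for all genes tested in either comparison. MOB1B, an activator of LATS, had the highest mean ratio (0.38), at 12.01, 13.4 and 15.6 TPM in MIA-PaCa2, against 12.4, 17.8 and 18.4 TPM in PANC-1, followed by SAV1 (0.31). PDCD10 (CCM3) had the lowest (-0.15), at 70.1, 80.0 and 59.1 TPM in MIA-PaCa2, against 209, 173 and 172 TPM in PANC-1, followed by FGFR1OP2 (-0.04). Between the lines 4 were higher in PANC-1 (PDCD10, STRIP2, CTTNBP2NL and FGFR1OP2) and 8 were lower, among them LATS2, PPP2R1A and SIKE1. Called were thus 66.7% of the 18, against 75.3% of all genes that reached 5 TPM in both lines. Of 12 with measurable shares, 0 had a share moved in all 4 comparisons, against 0.916% of all genes measured.

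Over the 6 libraries, the transcript shares of other genes most like that of SLK NM_014720 were KCNAB2 NM_001199863 (Pearson r = 0.990), ZNF446 NM_001304453 (0.986), ALKBH8 NM_001301010 (0.981), TMEM134 NM_001078651 (0.979) and SLC9B2 NM_178833 (0.978), out of 7847 candidates. KCNAB2 NM_001199863 was 0.00194%, 22.0% and 20.1% in MIA-PaCa2, against 2.27%, 6.82% and 5.68% in PANC-1. For MAP3K7 NM_145331 they were ZNHIT3 NM_004773 (0.996), HKR1 NM_001329764 (0.991), DNAAF2 NM_001083908 (0.987), TRIP10 NM_001288963 (0.984) and MAFIP NR_046439 (0.982). TRIP10 NM_001288963 was 9.92%, 11.4% and 23.6% in MIA-PaCa2, against 5.39%, 4.74% and 13.2% in PANC-1, highest with ESRP2 in each line. The gene levels most like that of SLK were MAPK8IP1, SSB, WAC, ZFR and MRPS9, all higher in MIA-PaCa2 than in PANC-1, out of 6468 candidates. These are descriptions over 6 points that share lines and constructs, chosen as the highest of many.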

How the data were processed

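Libraries of MIA-PaCa2 and PANC-1 with LPCX, ESRP1 or ESRP2 were made with a TruSeq mRNA kit, per the labels' protocols. Per the submitters' processing notes, Salmon and GRCh38 (hg38) were used, with versions and annotation not given in the sources used here. As deposited by the authors, 1 table holds signal in TPM for RefSeq transcripts, with 67792 lines. Of these 8664 repeat another transcript, so the columns sum to between 1140623 and 1151937, and 59128 transcripts remained without them. TPM keeps no depth, so no counting error is given. The quantification splits reads between overlapping transcripts, which affects shares of similar transcripts most. The columns for LPCX and ESRP2 in MIA-PaCa2 have misspelled headers and were assigned by elimination. The LPCX headers end in N and the others in T, which is not explained.

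Limma 3.58.1 (R 4.3.3) with trend was fitted to log2(TPM + 1) of the 11829 genes that reached 5 TPM in 2 or more libraries, and to log2 odds of transcript shares (pseudocount 0.5 TPM). The share fit took genes with at least 2 transcripts and 5 TPM in every library, and transcripts with at least 10% of their gene in a library. Construct and cell line were terms, so the cell line is the block, and the labels give no replicate numbers. P-values were adjusted by Benjamini-Hochberg per contrast at 0.05. The spread in these fits is how far a construct's effect differed between the lines, since no group has a second sample. The fits were tested on simulated data, where the smallest effects put in were not recovered. A share or an exon counted as moved from 10 percentage points. Exons came from GENCODE 29 models paired to RefSeq accessions, 27 of 32 for the 8 genes, and introns and proteins were not analysed here.

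The genes and lists were chosen with earlier results of these data known. Named were the 8 genes, their transcripts of at least 10%, list genes that passed a test (not all are reported here), the 2 highest and 2 lowest of each list by mean ratio, and the 5 most alike by r. For likeness, shares needed a range of 10 points and gene levels an SD of at least 0.2. MINK1 NM_170663, which stayed below 10%, was added after its values were seen. Alternatives were another pseudocount, filter, scaling, trend, block, step, repeated lines kept, and each library left out.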

Additional observations from a re-analysis of the deposited data

Results flagged for a closer look

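Of the 13 transcripts compared, 5 (of 3 genes) moved in opposite directions in the 2 lines. Both ESRP libraries of MIA-PaCa2 moved one way against LPCX and both ESRP libraries of PANC-1 moved the other way. The largest of these moves was 7.67 percentage points, for MAP4K4 NM_001242559 with ESRP2 in MIA-PaCa2. How many of all transcripts did so is not given, so whether 5 of 13 is unusual cannot be said. The difference between the lines was not tested, since each line has 1 library per construct, and the 2 comparisons within a line share their LPCX library. The TAB2 transcripts NM_001292034 and NM_015093 mirror each other, so they are 1 observation. NM_001292034 was 3.37 and 3.58 percentage points below LPCX in MIA-PaCa2 with ESRP1 and ESRP2 (-3.37 and -3.58), and 6.69 and 4.59 points above it in PANC-1, so that PANC-1 minus MIA-PaCa2 was 9.12 points on average, and -9.12 points for NM_015093. For MAP4K4 NM_001242559 the mean difference between the lines was -7.80 points, and for MAP4K4 NM_145686 it was 3.79 points. For MINK1 NM_001024937 it was 5.35 points.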

How the results depend on the processing

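The 4 genes called between the lines were the same under every alternative run, also with no filter on low TPM. One of the 4 is TNIK, whose direction the main filter fixed. None of the 8 genes was called for a construct under any alternative. The MAP3K7 shares called between the lines were less stable. The 2 member transcripts called became 1 with an odds pseudocount of 0.1 TPM (NM_145333 lost) and 1 with no block, the construct term left out of this contrast (NM_145331 lost, adjusted p = 0.107), and ranged from 0 to 3 when 1 library was left out. Such a fit has 1 residual degree of freedom and assumes that a lone library varies like the others. The count of genes with a share moved in all 4 comparisons, 1 at 10 percentage points, was 0 at 20 points. The difference of ESRP1 from ESRP2 in SLK NM_014720 ran from -0.51 to 0.83 with 1 library left out. Of 274 values of single genes and transcripts under alternatives, 258 kept their direction and side of the threshold, 13 lost a call, 1 gained one and 2 reversed. The cause of these changes was not tested. Unknown depth leaves the precision of low values, such as TNIK in MIA-PaCa2, unstated.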

Other observations

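A transcript share moved by 10 percentage points in at least 1 of the 4 comparisons in 3 of 14 measured STE20 kinases, 6 of 17 TAK1 pathway genes, 0 of 6 partners of SLK and STK10 and 3 of 12 STRIPAK and LATS genes, against 33.8% of all 6003 genes measured. The 4 genes that follow were chosen after their values were seen. For MAP4K5, a relative of MAP4K4, NM_006575 was 50.9%, 51.3% and 69.3% of the gene in MIA-PaCa2 (LPCX, ESRP1, then ESRP2), and 67.5%, 81.8% and 77.2% in PANC-1. It was thus above LPCX by 10 points or more only with ESRP2 in MIA-PaCa2 and with ESRP1 in PANC-1. For IKBKB, the IKK subunit downstream of TAK1, NM_001242778 was 16.4%, 28.7% and 33.8% in MIA-PaCa2, against 21.7%, 18.3% and 33.1% in PANC-1, highest with ESRP2 in each line. For MAP2K7, a kinase between TAK1 and JNK, NM_145185 was 43.4%, 49.2% and 37.7% in MIA-PaCa2, against 15.4%, 18.3% and 32.4% in PANC-1, so ESRP2 was lowest in MIA-PaCa2 and highest in PANC-1. STRADA NM_001165969 was above LPCX in all 4 ESRP libraries, at 34.1%, 39.9% and 38.5% in MIA-PaCa2, against 37.3%, 49.6% and 46.8% in PANC-1, with 1 of the 4 differences at 10 points or more.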
